A study of Homo sapiens with 6 samples.

Results

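Eph receptors and ephrins were followed in the epithelial-type lung carcinoma line H358, of human origin, after the epithelial splicing regulators ESRP1 and ESRP2 had been lowered. The genes described are 10 of the 54607 genes in the deposited table, taken by symbol: the receptors EPHA1, EPHA2, EPHA4, EPHB2, EPHB3 and EPHB4 and the ligands EFNA1, EFNA5, EFNB1 and EFNB2. Each symbol had 1 row. All libraries were made from H358 cells carrying lentiviral constructs, per the labels: 3 libraries came from cells given short hairpin RNAs against both ESRP genes, called the knockdown below, and 3 from cells with a control knockdown, called the control, and each set is described as biological triplicates. The labels do not give the hairpin sequences, the time after infection or whether clones were picked, so anything the constructs did by another route cannot be told apart from what the loss of ESRP did. Levels are given as FPKM, a count of sequenced fragments divided by transcript length and by library size, which allows them to be compared between genes of different length, and n = 3 libraries in every mean ± SD below.

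Eph receptors are the most numerous family of receptor tyrosine kinases, and ephrins are their ligands on the surface of neighbouring cells. Ephrin-A ligands are held in the membrane by a lipid anchor and mostly bind EphA receptors, while ephrin-B ligands span the membrane and mostly bind EphB receptors. EPHA4 binds ligands of both classes. Contact between cells can signal forward into the cell with the receptor and in reverse into the cell with the ephrin, and the family is known for sorting cells at tissue boundaries, for guiding axons and vessels and, in epithelia, for tuning adhesion at junctions. ESRP proteins are RNA-binding proteins that set the epithelial pattern of alternative splicing.

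The targeted genes were lower in the knockdown in every library. ESRP1 stood at 73.5, 72.6 and 72.5 FPKM in the control and at 12.1, 11.6 and 12.0 FPKM in the knockdown, and ESRP2 at 15.5, 15.9 and 15.2 FPKM in the control against 8.76, 8.23 and 8.20 FPKM in the knockdown. Relative depth, read from steps among the low values, ranged from 0.993 to 1.66 times that of control replicate 1, and the total depth is unknown. All 6 epithelial markers were present. Their summed levels were 3485 to 3593 FPKM in the control and 3018 to 3113 FPKM in the knockdown. In the limma fit described below, 5 of the 6 (CDH1, KRT7, KRT8, KRT18 and KRT19) were called lower, against 10.2% of all tested genes. Their log2 fold changes ran from -0.39 for CDH1 to -0.15 for KRT8. EPCAM had a limma adjusted p of 0.540. Of the 6 lung lineage markers NKX2-1 and SFTA3 were high (48.2 ± 1.24 and 56.7 ± 0.454 FPKM in the control) and NAPSA low (2.27 ± 0.101 FPKM), while the surfactant genes were at or near 0, with SFTPB listed at 0 in every library. Of the endothelial markers measured, summed at 1.66 to 1.81 FPKM in the control and 1.66 to 2.06 FPKM in the knockdown, CDH5, TEK, VWF and TIE1 each averaged 0.185 FPKM or less in both groups and KDR stood at 1.27 ± 0.0570 FPKM in the control. The 6 blood cell markers summed to 14.7 to 16.4 FPKM in the control and 12.5 to 14.1 FPKM in the knockdown, nearly all of it from CD68, with PTPRC at 0.229 ± 0.147 FPKM in the control. The part that the fall in epithelial markers has in the results below was not tested.

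After lowering of ESRP1 and ESRP2, the most abundant receptors fell and the most abundant ephrin-B ligand rose, by small amounts. EPHA2 fell to 83.4% and EPHB4 to 86.9% of their control levels, and EFNB2 rose to 113.7%. The other 7 genes did not pass. All 10 passed the filter, an average of 1 FPKM or more in the 6 libraries, and were read from a limma fit over 13611 genes, on log2(FPKM + 1), as knockdown minus control, with Benjamini-Hochberg adjustment over all of them and a threshold of 0.05. In that fit 16.7% of all tested genes were called, 6.54% of them higher and 10.2% lower, as shares of tested genes. Of the 10, 1 was called higher and 2 lower. The groups did not overlap for 4 of the 10, against 38.1% of all tested genes, so that share is near the background. The median log2 fold change was -0.04 over the 10 and -0.0021 over all tested genes. When 1 library was left out, 1 to 3 of the 10 were called. Only EPHA2 was called without knockdown replicate 1 or 2 or without control replicate 2, and EPHA2 and EPHB4 were called without control replicate 3.

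**Figure D1:**
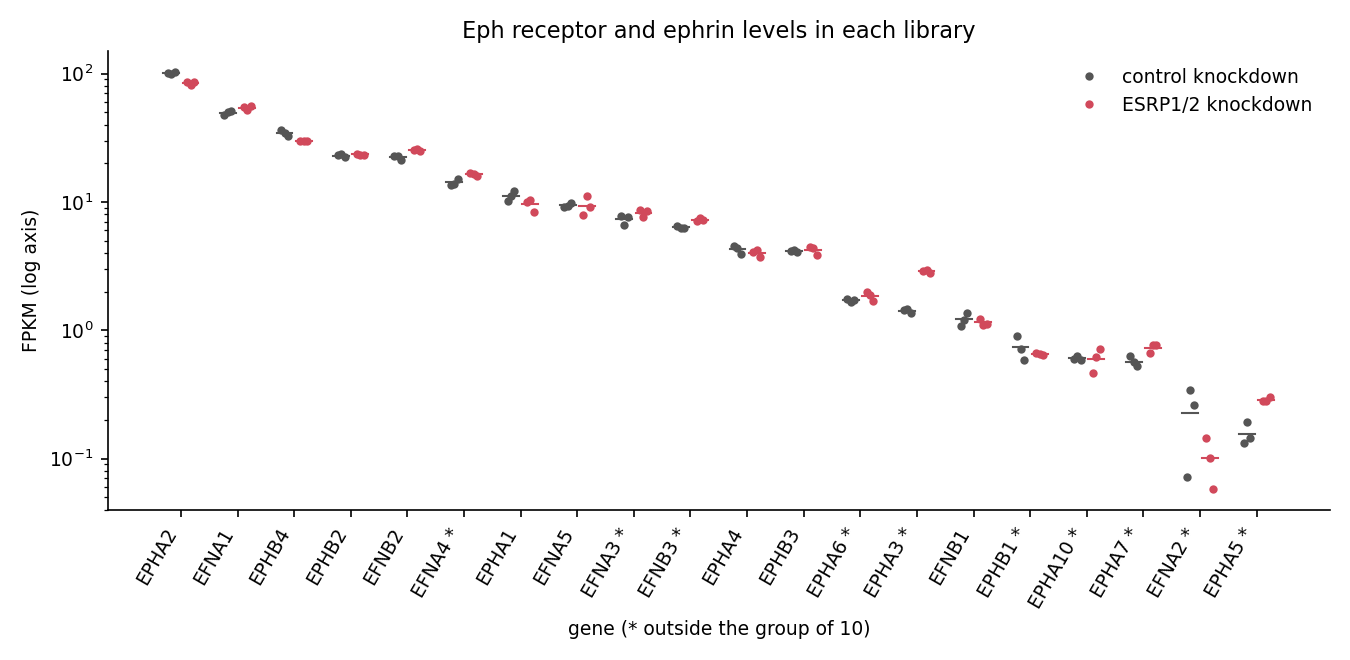
FPKM of 20 Eph and ephrin genes with a mean of at least 0.1 FPKM in the 3 control libraries (grey) and the 3 knockdown libraries (red), on a log axis, ordered by control mean. Points are libraries and lines are group means. EPHA2 lies highest in both groups and EFNB1 is the lowest of the 10 genes, while EPHA3 shows the widest gap between groups among the genes above 1 FPKM.

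The order of levels was nearly the same in both groups. In the control it ran EPHA2, EFNA1, EPHB4, EPHB2, EFNB2, EPHA1, EFNA5, EPHA4, EPHB3 and EFNB1 among the 10 genes, from 101 down to 1.22 FPKM. EPHB2 and EFNB2 were neighbours whose control libraries overlapped, and so were EPHA4 and EPHB3. In the knockdown EFNB2 stood above EPHB2 with no overlap of libraries, and EPHA1 and EFNA5 overlapped, as did EPHB3 and EPHA4. The 10 genes made up 88.7 ± 0.240% of the summed FPKM of all 22 human Eph and ephrin genes in the control and 86.3 ± 0.117% in the knockdown.

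The starts of the 3 genes of the 10 whose level passed the test, and of EPHA3, the gene outside the 10 with the largest fold change among tested genes of the family, are shown as sequence, so that the promoter of each can be read beside its values. Those of EFNA4 and EFNB3, which also passed, are not shown. The windows are from RefSeq (GRCh38.p14) and run from 250 bases before to 50 bases after the annotated start, on the gene's own strand. EPHA2 lies at chr1:16156020-16156319 (minus strand), EPHB4 at chr7:100827474-100827773 (minus), EFNB2 at chr13:106535613-106535912 (minus) and EPHA3 at chr3:89107371-89107670 (plus). Capitals mark the E-box CAGGTG, which SNAIL and ZEB repressors of the epithelial to mesenchymal transition can bind, the GC box GGGCGG, which SP1 can bind, and the TATA box TATAAA, each on either strand.
EPHA2: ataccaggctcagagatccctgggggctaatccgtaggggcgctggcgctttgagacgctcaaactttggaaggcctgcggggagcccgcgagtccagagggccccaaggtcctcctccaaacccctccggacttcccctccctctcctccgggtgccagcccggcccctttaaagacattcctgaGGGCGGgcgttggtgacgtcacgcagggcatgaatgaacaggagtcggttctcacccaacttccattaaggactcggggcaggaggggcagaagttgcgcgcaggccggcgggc
EPHB4: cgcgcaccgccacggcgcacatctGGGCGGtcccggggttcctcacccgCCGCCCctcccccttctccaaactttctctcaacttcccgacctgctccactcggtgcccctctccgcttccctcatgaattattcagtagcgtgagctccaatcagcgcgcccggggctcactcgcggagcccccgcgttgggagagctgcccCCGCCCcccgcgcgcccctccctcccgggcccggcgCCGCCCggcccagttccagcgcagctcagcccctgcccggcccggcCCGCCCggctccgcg
EFNB2: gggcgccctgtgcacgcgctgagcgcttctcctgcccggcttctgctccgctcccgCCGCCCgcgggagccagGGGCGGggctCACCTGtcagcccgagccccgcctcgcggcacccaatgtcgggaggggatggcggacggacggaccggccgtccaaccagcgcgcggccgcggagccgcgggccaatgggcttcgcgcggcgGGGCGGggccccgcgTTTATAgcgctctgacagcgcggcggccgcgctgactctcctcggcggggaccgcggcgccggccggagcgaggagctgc
EPHA3: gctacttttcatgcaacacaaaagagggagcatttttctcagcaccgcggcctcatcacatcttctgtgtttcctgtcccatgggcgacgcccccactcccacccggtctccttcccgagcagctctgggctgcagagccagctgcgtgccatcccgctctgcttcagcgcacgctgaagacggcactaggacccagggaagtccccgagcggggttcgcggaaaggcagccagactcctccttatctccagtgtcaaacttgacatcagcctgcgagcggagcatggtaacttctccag
The EPHA2 window held 1 GC box, 64 bases before the start. The EPHB4 window held 5 GC boxes and no match to the other motifs. The EFNB2 window held 3 GC boxes, 1 E-box 167 bases before the start and 1 TATA box match 30 bases before it, none of which overlap. This E-box and this TATA box matched on the opposite strand, and read CACCTG and TTTATA on the gene's own strand. The EPHA3 window held none of these motifs. None of the 4 windows held the AP-1 motif TGANTCA. Over all 34943 distinct windows of this length, 44.9% held a GC box, 20.6% the E-box, 11.6% the TATA box and 7.72% the AP-1 motif. CpG dinucleotides numbered 20 in the EPHA2 window, 36 in EPHB4, 49 in EFNB2 and 17 in EPHA3. Over all windows the median was 14 and the quartiles were 4 and 28, so only EPHB4 and EFNB2 lay above the upper quartile. These matches describe the letters only.

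EPHA2, the EphA receptor of many epithelia and a receptor for ephrin-A1, was the most abundant member of the family (ENSG00000142627, hg19 chromosome 1, 16450832 to 16482582, minus strand). It stood at 100.3, 99.6 and 104 FPKM in control replicates 1 to 3 and at 86.5, 81.2 and 85.4 FPKM in the knockdown replicates. Every knockdown library lay below every control library, with a gap between the groups wider than the range within either. The log2 fold change was -0.26 (SE 0.03, limma adjusted p = 0.00281). It passed under all 14 alternatives, with log2 fold changes of -0.28 to -0.21 and adjusted p of 0.00143 to 0.0166. Its gene overlaps an antisense RNA row by 877 bases, and that row averaged 1.49 FPKM.

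EPHA1, the family's founding receptor, which was cloned from a carcinoma, stood at 10.2, 11.2 and 12.2 FPKM in the control and at 9.93, 10.4 and 8.37 FPKM in the knockdown. The groups overlapped, since knockdown replicate 2 lay above control replicate 1. The log2 fold change of -0.21 had a 95% interval of -0.41 to -0.0032, with an unadjusted p of 0.0473 and a limma adjusted p of 0.147. On the opposite strand EPHA1 shares 823 bases with ZYX and 1080 bases with AC092214.10. Those rows averaged 25.8 and 3.57 FPKM, so the EPHA1 level is uncertain. EPHA4, which also takes ephrin-B ligands, stood at 4.50, 4.39 and 3.95 FPKM in the control and 4.04, 4.21 and 3.73 FPKM in the knockdown. Its groups overlapped and its log2 fold change was -0.08 (95% interval -0.23 to 0.07, limma adjusted p = 0.439). Summed over the EphA receptors, which EPHA2 dominates, the level was 121 ± 2.60 FPKM in the control and 104 ± 2.30 FPKM in the knockdown.

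EPHB4, a receptor whose preferred ligand is ephrin-B2 and which is known for its role in veins (ENSG00000196411, chromosome 7, 100400187 to 100425121, minus strand), stood at 36.3, 34.5 and 32.7 FPKM in the control. In the knockdown it stood at 30.0, 30.0 and 29.8 FPKM. The knockdown libraries lay closer together than the control libraries and below all of them. The log2 fold change was -0.20 (SE 0.04, limma adjusted p = 0.0171). The call was lost without knockdown replicate 1 or 2, without control replicate 2 and after removal of the trends on GC content and length, with adjusted p up to 0.0624 over all alternatives. EPHB4 shares 680 bases with SLC12A9 on the opposite strand, which averaged 10.7 FPKM, and the strand setting of the counting is not given in the sources used here.

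EPHB2, an EphB receptor that positions cells in the intestinal crypt, stood at 23.1, 23.4 and 22.3 FPKM in the control and at 23.8, 23.1 and 23.4 FPKM in the knockdown. The groups overlapped, and the log2 fold change of 0.03 had a 95% interval of -0.05 to 0.11 (limma adjusted p = 0.603). EPHB3, its companion in the crypt, stood at 4.11, 4.22 and 4.04 FPKM in the control and 4.45, 4.36 and 3.83 FPKM in the knockdown, with a log2 fold change of 0.02 (95% interval -0.12 to 0.17, limma adjusted p = 0.839). The EPHB3 gene lies whole, over 20626 bases, inside the deposited row of EIF2B5 on the same strand, so its level is uncertain. The share of EPHB4 in the summed EphB receptors was 55.3 ± 0.836% in the control and 51.4 ± 0.468% in the knockdown. The groups did not overlap in this share, but that is not separate evidence, since EPHB4 itself was called lower. The share carries no test, and the sum includes EPHB3, whose level is uncertain.

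Among the ligands, EFNB2, which encodes the transmembrane ligand ephrin-B2 (ENSG00000125266, chromosome 13, 107142093 to 107187462, minus strand), stood at 22.9, 22.7 and 21.3 FPKM in the control and at 25.2, 25.9 and 24.9 FPKM in the knockdown. All knockdown libraries lay above all control libraries. The log2 fold change was 0.18 (SE 0.04, limma adjusted p = 0.0198). The call was lost without knockdown replicate 1 or 2 and without control replicate 2 or 3 (adjusted p up to 0.0665), with the same direction throughout. EFNB1, the X-linked gene of ephrin-B1, was low, at 1.09, 1.21 and 1.36 FPKM in the control and 1.22, 1.10 and 1.13 FPKM in the knockdown, just above the filter. Its groups overlapped, and the log2 fold change was -0.04 (95% interval -0.24 to 0.16, limma adjusted p = 0.774).

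EFNA1, which encodes ephrin-A1, a ligand of EPHA2, was the most abundant ligand (ENSG00000169242, chromosome 1, 155099936 to 155107333, plus strand). It stood at 47.4, 49.8 and 50.8 FPKM in the control and at 54.7, 51.8 and 55.6 FPKM in the knockdown. The groups did not overlap, but the gap between control replicate 3 and knockdown replicate 2 was smaller than the range within either group. The log2 fold change of 0.13 (SE 0.04) had a limma adjusted p of 0.0619 and did not pass. It passed with a filter of 5 FPKM and after removal of the GC content and length trends, with a lowest adjusted p of 0.0104 over the alternatives. EFNA5, the gene of ephrin-A5, stood at 9.19, 9.37 and 9.89 FPKM in the control and 7.90, 11.1 and 9.05 FPKM in the knockdown. Knockdown replicates 1 and 2 lay on opposite sides of all control libraries, and the log2 fold change of -0.03 had the wide 95% interval of -0.27 to 0.21 (limma adjusted p = 0.878).

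**Figure D2:**
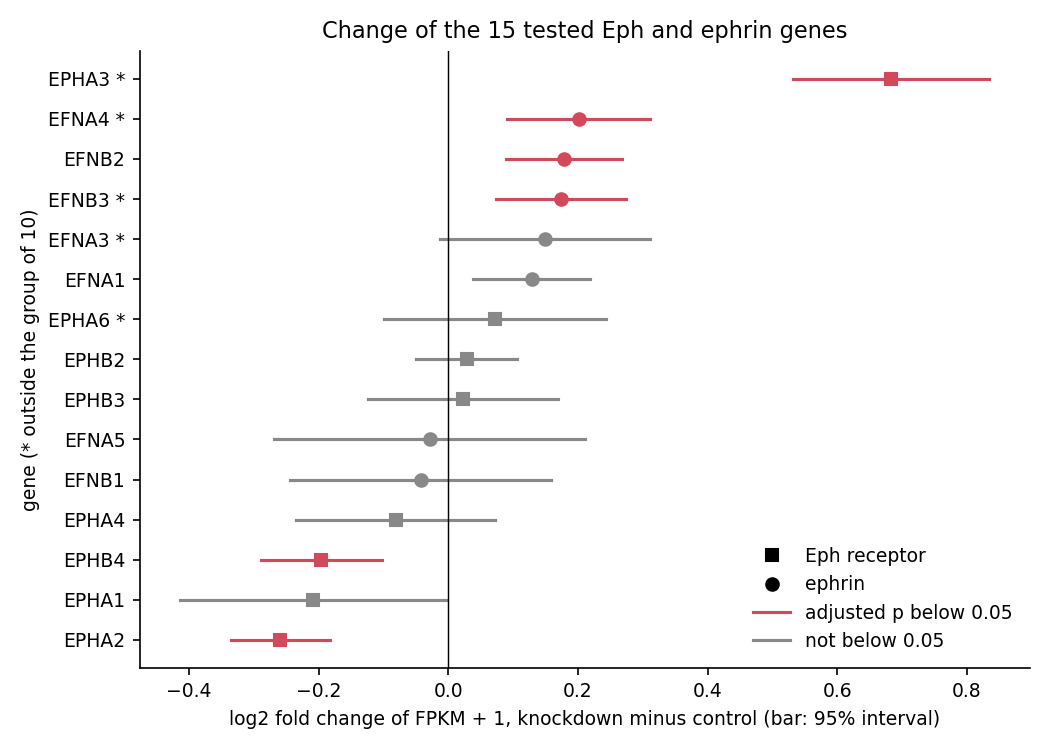
Log2 fold change of FPKM + 1, knockdown minus control, with 95% intervals, for the 15 Eph (squares) and ephrin (circles) genes that passed the filter. Red marks a limma adjusted p below 0.05, and an asterisk marks genes outside the 10. EPHA2 and EPHB4 lie below 0, and EFNB2, EFNB3, EFNA4 and EPHA3 lie above it.

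The ratio of a receptor to its ligand within a library does not depend on how libraries are scaled. These ratios were chosen after the values were seen and carry no test. EPHA2 over EFNA1 was 2.12, 2.00 and 2.04 in the control and 1.58, 1.57 and 1.54 in the knockdown. EPHB4 over EFNB2 was 1.58, 1.52 and 1.54 in the control and 1.19, 1.16 and 1.20 in the knockdown. Both ratios thus stood in the knockdown at 76.1% and 76.4% of the control mean. The groups overlapped in neither ratio. That follows from the genes alone, since each receptor lay lower and each ligand higher in every knockdown library than in every control library. EFNA1 itself did not pass (limma adjusted p = 0.0619). EPHB2 over EFNB2 was 1.03 ± 0.0181 in the control and 0.924 ± 0.0299 in the knockdown. Summed over the family, Eph receptors went from 183 ± 0.725 to 162 ± 2.82 FPKM and ephrins from 110.4 ± 2.12 to 122 ± 0.372 FPKM. The ratio of these sums was 1.66 ± 0.0333 in the control and 1.33 ± 0.0234 in the knockdown. In the control EPHA2 made up 55.2 ± 1.05% of the summed receptors and EFNA1 44.7 ± 0.834% of the summed ephrins. The sums thus depend most on EPHA2 and EFNA1 and do not show a change shared by the family.

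**Figure D3:**
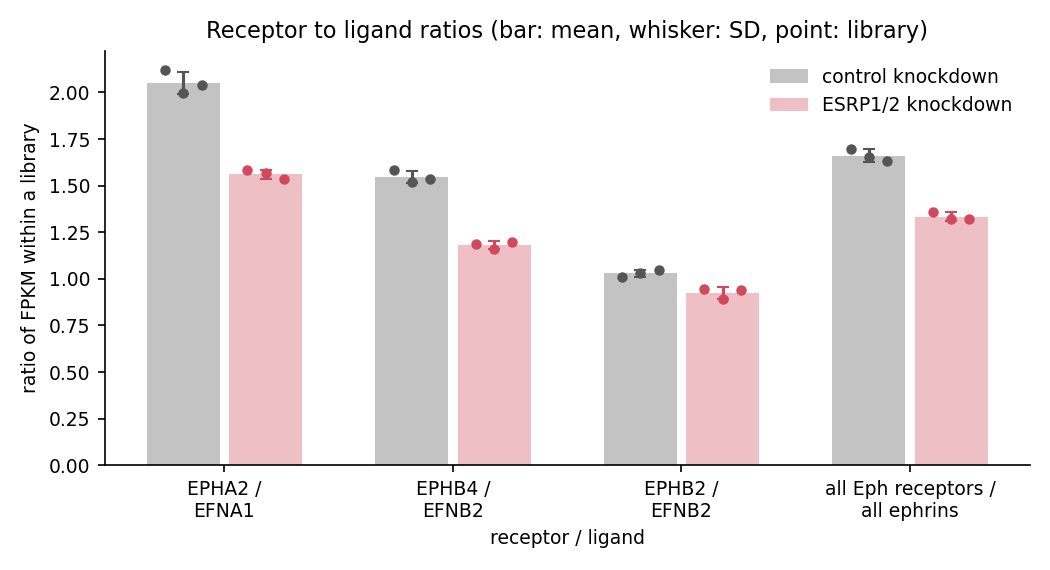
Ratio of receptor FPKM to ligand FPKM within each library, for 3 receptor and ligand pairs and for the sums over the family. Bars are group means, whiskers SD and points the libraries, in grey for the control and red for the knockdown. EPHA2 over EFNA1 has a mean of 2.05 in the control and 1.56 in the knockdown, and EPHB4 over EFNB2 one of 1.55 and 1.18.

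The rest of the family holds 12 genes, of which 5 passed the filter and 3 rose, against 6.54% of all tested genes. EPHA3, an EphA receptor better known from mesenchymal and neural cells (ENSG00000044524, chromosome 3, 89156674 to 89531284, plus strand), stood at 1.43, 1.47 and 1.37 FPKM in the control and at 2.90, 2.96 and 2.80 FPKM in the knockdown. Its knockdown mean was 203% of the control mean, and each knockdown library lay above every control library. The log2 fold change on the scale of log2(FPKM + 1), which understates changes of low genes, was 0.68 (SE 0.07, limma adjusted p = 9.6e-04), and 0.97 with a pseudocount of 0.1. The call held under all 13 alternatives that could be run, with adjusted p up to 0.0111. EPHA3 still made up only 2.77 ± 0.108% of the summed EphA receptor level in the knockdown, and 1.17 ± 0.0643% in the control.

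The ligands EFNA4 and EFNB3 rose too, from 14.2 ± 0.802 to 16.4 ± 0.480 FPKM and from 6.33 ± 0.113 to 7.26 ± 0.185 FPKM, with log2 fold changes of 0.20 and 0.17 (limma adjusted p = 0.0270 and 0.0325). EFNA4 was lost without knockdown replicate 1 or 2, without control replicate 1 or 2, with the replicate block and with no filter, with adjusted p up to 0.0960. EFNB3 was lost when any 1 library was left out, with the replicate block and with no filter, with adjusted p up to 0.103. EFNA3 (7.34 ± 0.619 and 8.24 ± 0.532 FPKM in control and knockdown) and EPHA6 (1.71 ± 0.0453 and 1.85 ± 0.144 FPKM) had adjusted p of 0.184 and 0.544. Below the filter, EPHA5 stood at 0.131, 0.193 and 0.145 FPKM in the control and 0.280, 0.281 and 0.303 FPKM in the knockdown, and its limma adjusted p was 0.0418 when no filter was applied. An antisense row, RP11-408P14.1, overlaps EPHA5 by 870 bases at a mean of 30.9 FPKM, so the EPHA5 level is uncertain. EPHA7 stood at 0.570 ± 0.0506 and 0.730 ± 0.0572 FPKM in control and knockdown (limma adjusted p = 0.191 with no filter). EPHB1, EPHA10 and EFNA2 averaged below 1 FPKM in both groups with overlapping libraries, EPHA8 was at or near 0 and EPHB6 was listed at 0 in every library. Of all 8 tested receptors 1 rose and 2 fell, and of all 7 tested ephrins 3 rose and none fell, with median log2 fold changes of -0.03 and 0.15. Over all tested genes 6.54% rose and 10.2% fell. No ephrin was called without knockdown replicate 1, without knockdown replicate 2 or without control replicate 2. With the replicate block EFNB2 was the only ephrin called. The receptors EPHA2 and EPHA3 were called in each of these fits. The difference between receptors and ligands was not tested.

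Among the ephrin-A genes, EFNA4, EFNA3 and EFNA1 lie next to each other on chromosome 1 and are read in the same direction. Their log2 fold changes were 0.20, 0.15 and 0.13, of which only that of EFNA4 passed. Of 20 other tested genes within 100 kb of the group, none was called higher and 5 fell (SHC1, CKS1B, ZBTB7B, ADAM15 and MTX1P1). Among all tested genes 6.54% were called higher and 10.2% lower. The log2 fold changes over the 20 ran from -0.32 to 0.26. When any 1 library was left out, 2 or 3 of these neighbours were called, and of the 5 only ADAM15 was called in each such fit. ADAM15, a membrane metalloprotease gene directly upstream of EFNA4, stood at 134 ± 3.39 FPKM in the control and at 114 ± 1.94 FPKM in the knockdown (limma adjusted p = 0.0026, log2 fold change -0.23). The rows of EFNA3 and EFNA4 share 5806 bases on the same strand, so reads may have been divided between them and both levels are uncertain. This neighbourhood was chosen after the values were seen.

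**Figure D4:**
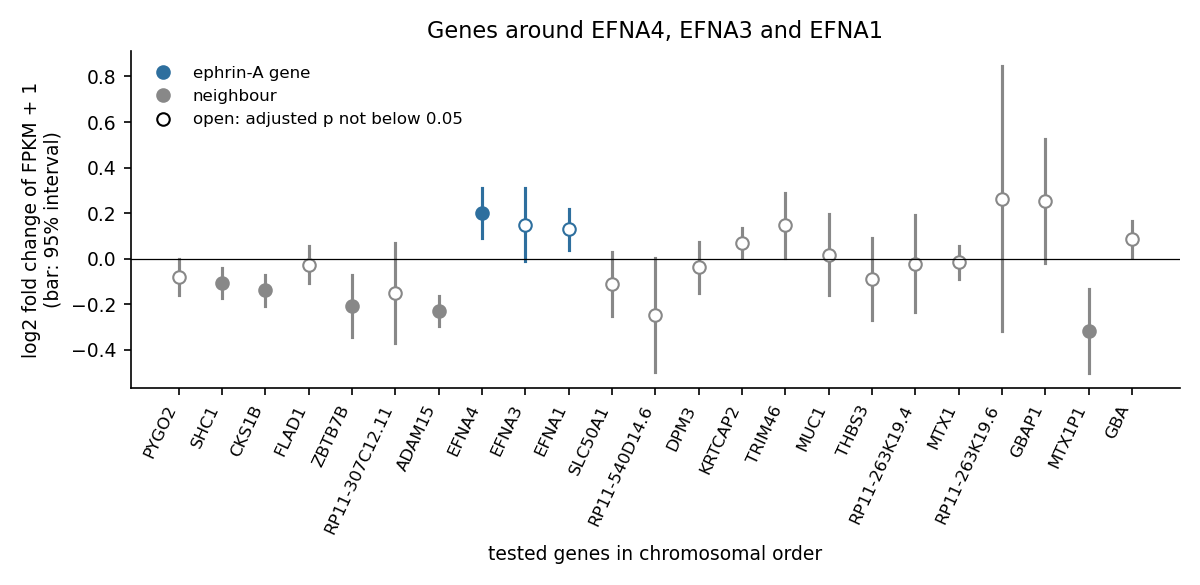
Log2 fold change of FPKM + 1 with 95% intervals for the 23 tested genes within 100 kb of EFNA4, EFNA3 and EFNA1, in chromosomal order. Blue marks the ephrin-A genes and grey the neighbours, and filled points have a limma adjusted p below 0.05. The ephrin-A genes lie above 0 between ADAM15 and SLC50A1, which lie below it.

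Proteins that carry Eph and ephrin signals inside the cell were read in the same fit from lists chosen with earlier results of these data known. Cytoplasmic kinases that act beside Eph receptors fell in 4 of 9 and rose in 1, with a median log2 fold change of -0.12, where 10.2% of all tested genes fell and 6.54% rose; these shares are the background for every list that follows. When 1 library was left out, 3 or 4 were called, and 3 without control replicate 2 or 3. PTK2, which encodes focal adhesion kinase, went from 65.4, 68.2 and 67.2 FPKM in the control to 43.6, 45.4 and 46.4 FPKM in the knockdown (log2 fold change -0.56, limma adjusted p = 1.6e-04). PTK2B, its relative PYK2, fell from a mean of 19.7 ± 1.52 to one of 12.6 ± 0.873 FPKM (log2 fold change -0.60). SRC, the founding kinase of its family, went from 17.6 ± 0.691 to 14.3 ± 0.257 FPKM. MAP4K4 had a log2 fold change of -0.14, a call lost without control replicate 2 or 3 (adjusted p up to 0.0538). ABL1, a kinase of the cytoskeleton, had one of 0.12 in the other direction, a call lost when any 1 library was left out and under 4 other alternatives (adjusted p up to 0.130).

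Of 17 tested adaptors and docking proteins, 7 fell (10.2% of all tested genes did) and 1 rose (6.54%), with a median log2 fold change of -0.09, and 3 to 5 were called when any 1 library was left out. The adaptors GRB7 and GRB10 fell, GRB7 from 13.0 ± 0.649 to 9.21 ± 0.460 FPKM, and GRB10 from 25.3 ± 0.446 to 19.5 ± 0.433 FPKM (log2 fold changes -0.46 and -0.36). The exception was RASA1, a GTPase-activating protein that turns off RAS and docks on EphB receptors, from 60.9 ± 1.54 to 72.2 ± 1.85 FPKM (limma adjusted p = 0.0033, log2 fold change 0.24). BCAR1, the scaffold p130Cas, had a log2 fold change of -0.17, a call that failed without knockdown replicate 1, without any 1 of the control replicates and with the replicate block (adjusted p up to 0.0710), and its log2 fold change was -0.11 after removal of the GC content and length trends.

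Of 11 tested proteases and phosphatases that cleave or dephosphorylate Eph receptors or ephrins, 1 rose and 2 fell, and 2 or 3 were called when 1 library was left out. The receptor phosphatase genes PTPRF and PTPRJ moved in opposite directions, from 63.2 ± 0.590 to 51.8 ± 1.57 FPKM and from 21.2 ± 0.234 to 24.7 ± 0.741 FPKM (log2 fold changes -0.28 and 0.21). PSEN2, a subunit of gamma-secretase, had a log2 fold change of -0.20, a call that did not hold without any single library except knockdown replicate 3, nor under 3 other alternatives (adjusted p up to 0.125). ADAM10, the protease that sheds ephrins, stood at 51.6 ± 3.64 and 57.5 ± 3.85 FPKM in control and knockdown (adjusted p = 0.128). Of 11 partners of reverse signalling, 1 rose and 2 fell, and 1 or 2 were called when any 1 library was left out, 1 of them without control replicate 2 or 3. PLCG1, a phospholipase, rose from a mean of 22.4 ± 0.856 to one of 27.3 ± 1.43 FPKM (log2 fold change 0.27, limma adjusted p = 0.0085). DVL1, a Dishevelled protein, and SDCBP, syntenin, which binds the tail of ephrin-B proteins, had log2 fold changes of -0.17 and -0.11. DVL1 did not pass without knockdown replicate 2, without either of control replicates 2 and 3, with no filter or with the replicate block. After removal of the GC content and length trends its log2 fold change was -0.080 (limma adjusted p = 0.0864). SDCBP did not pass without any single library except knockdown replicate 2, nor with no filter, with no intensity trend or with the replicate block (adjusted p up to 0.129).

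**Figure D5:**
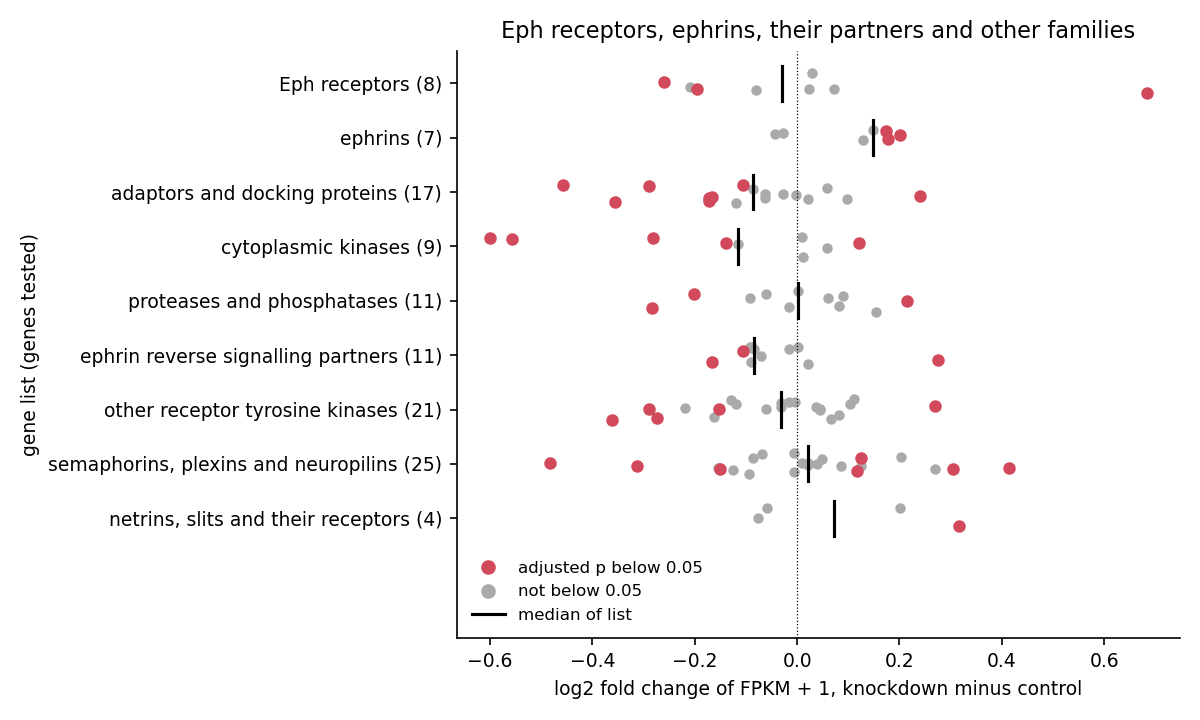
Log2 fold change of FPKM + 1, knockdown minus control, for the tested genes of each list, with the number tested in brackets. Red points have a limma adjusted p below 0.05, grey points do not, and black lines are list medians. The medians run from -0.12 for cytoplasmic kinases to 0.15 for ephrins.

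For scale, the other receptor tyrosine kinases and the other guidance families were counted in the same way. Of 43 other receptor tyrosine kinases 21 were tested, of which 1 rose and 4 fell, with a median log2 fold change of -0.03. The count of 5 ran from 2 to 6 when 1 library was left out, at 3 without control replicate 1 and 2 without control replicate 2. The called genes included ERBB3 (log2 fold change -0.27), ROR1 (0.27), ERBB2 (-0.15) and MERTK (-0.29). The ERBB2 call was lost without control replicate 2 and with the replicate block. That of MERTK was lost without control replicate 1 or 2 and with no filter. Of 25 tested semaphorins, plexins and neuropilins, 4 rose and 3 fell, 2 to 5 in all when 1 library was left out and 2 without control replicate 3. SEMA3A, a secreted guidance factor, went from 46.4 ± 0.448 to 62.3 ± 4.16 FPKM, and NRP1, which encodes its receptor neuropilin 1, from 21.0 ± 1.82 to 26.2 ± 0.369 FPKM, with log2 fold changes of 0.41 and 0.31. The NRP1 call was lost without knockdown replicate 2 and with no filter. SEMA4B also rose, with a log2 fold change of 0.12 (limma adjusted p = 0.0239). Its call was lost without knockdown replicate 1, without control replicate 1 or 3, with no filter, with no intensity trend and with the replicate block. The members that fell were SEMA3B, SEMA3F and the plexin PLXNA1, with log2 fold changes of -0.31, -0.48 and -0.15. SEMA3F was low, at 1.53 ± 0.262 FPKM in the control and 0.816 ± 0.218 FPKM in the knockdown. It passed the filter of 1 FPKM only through its control libraries, so its place in the count depends on that filter. SEMA3B did not pass without knockdown replicate 1 or 2, without control replicate 2 or 3, with no filter or after removal of the GC content and length trends. SEMA3F passed only in the fit without knockdown replicate 1 among those that left out a library, did not pass with no filter, and had a log2 fold change of -0.85 with a pseudocount of 0.1. PLXNA1 did not pass when any 1 library was left out, nor with no filter, with no intensity trend, with the replicate block or after removal of the GC content and length trends (adjusted p up to 0.184), where the last gave a log2 fold change of -0.095. Of 4 tested netrin, slit and receptor genes, SLIT2 rose, from 7.45 ± 0.167 to 9.51 ± 0.0945 FPKM. The shares called in these lists and among Eph and ephrin genes were not compared by a test.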

How the data were processed

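RNA of H358 cells was measured in 6 paired-end libraries, prepared with a kit for stranded mRNA, per the labels. The authors deposited FPKM for each Ensembl gene in each library. The submitters' processing notes list TopHat 1.4.1 and Cuffdiff 2.2.0 with build hg19. Neither the annotation release nor whether counting used strand is given in the sources used here. Since isoform lengths enter an FPKM, a change of splicing can move it. Of 54607 rows, 27772 were 0 in all libraries. Deposited starts were counted from 0 and were raised by 1.

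Differences were fitted with limma 3.58.1 in R 4.3.3 (intensity trend, two-sided, no replicate block) on log2(FPKM + 1), in the 13611 rows that averaged 1 FPKM or more. The steps were run on normal values simulated from the gene means and fitted spreads. That checks the code and cannot show that the model suits these FPKM values. The genes, lists and motifs were chosen with earlier results of these data known. Named genes were the 10 genes, the rest of the family, ESRP1 and ESRP2, and up to 4 called genes per list by smallest adjusted p, with those against their list's direction; ADAM10 and the neighbourhood of EFNA1 were added after the values were seen. All list genes but PECAM1, which is not analysed here, were matched to a row. Alternatives were a pseudocount of 0.1, no filter, a filter of 5 FPKM, a replicate block, scaling by median ratios or to TPM, a fit with no trend, removal of trends on GC content and length (GENCODE v29) and leaving out each library. A further list fixed in the design is not reported here.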

Additional observations from a re-analysis of the deposited data

How the results depend on the processing

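The number of genes called was 2278, and in separate fits it was 1413 of 26835 tested with no filter on low values, 1433 with the replicate block, and 1187 to 1983 when 1 library was left out. Of the 10 Eph and ephrin genes, 3 were called, 3 with the replicate block, and 1 to 3 when 1 library was left out. Deviations from group means correlated across genes at -0.0171, 0.0625 and 0.0701 for same-numbered libraries, and at -0.142 to 0.0874 for the others. Not every library correlated best with its own number, so no clear pairing was seen. With 3 libraries per group these values are too few to tell whether equal numbers mark a shared batch. The log2 fold changes of EPHB3 and EFNA5 reversed without knockdown replicate 1 and that of EFNB1 without control replicate 3. Over the fits that left out 1 library they ran from -0.011 to 0.076 for EPHB3, from -0.15 to 0.076 for EFNA5 and from -0.086 to 0.0026 for EFNB1. EFNB1 also reversed after removal of the GC content and length trends (0.014). None of these values passed. The cause was not tested. Over 49 genes and 678 values under alternatives, 544 kept direction and side of the threshold, 127 lost the call and 3 gained it, among them ADAM10 with the replicate block. With the replicate block 1 of the other Eph and ephrin genes, 3 adaptors, 1 reverse signalling partner, 3 other receptor tyrosine kinases and 4 semaphorins, plexins and neuropilins were called. With no filter 4 adaptors, 1 reverse signalling partner, 3 other receptor tyrosine kinases and 1 of the last family were called, and 5 adaptors with no intensity trend or after removal of the GC content and length trends. The 5 neighbours of EFNA1 became 2 with no filter or no intensity trend and 1 with the replicate block. Depth is unknown as a total, so no counting interval can be given.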
